A study of Homo sapiens with 5 samples.

Results

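Protein kinase C (PKC) genes encode serine/threonine kinases, and 8 of them were followed here in RNA recovered with a biotin-tagged microRNA. Their probes were found by current gene symbol among the 11184 probes of the deposited value table. Of the 8 genes, 7 had at least 1 probe, and these 7 stand among 8127 genes with a named probe. PRKCE had no probe in that table and was not measured. PRKCZ had 2 probes and each of the other 6 genes had 1. PRKCQ was chosen by its difference between the study's groups, among the largest in these same arrays, and the other genes were added as its family. The values of that comparison are therefore given as a description of these arrays. Where a fit across all genes counts PKC genes as called, that count is listed beside the share of all genes and is not a test of the PKC genes.

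The study used HEK293T cells, which derive from human embryonic kidney and express the SV40 large T antigen. In 2 samples the cells received 200 pmol of synthetic biotin-labelled miR-182-5p duplex, and RNA was isolated with streptavidin beads (the miR-182 pull-down). In the 3 other samples the cells were mock transfected and the pull-down field reads "none" (the mock). Harvest was 24 h after transfection, and labelled cRNA was hybridised to Illumina BeadArrays. The labels attach the bead protocol to the mock as well, so it is not settled whether mock RNA met the beads, and the microRNA and the bead step cannot be told apart in this comparison. All samples come from 1 cell line, and no label says that samples of a group were grown separately, so the spread between arrays may be technical. The value of a probe is the authors' deposited log2 value, differences are pull-down minus mock on that scale, and a fold is 2 to the power of the difference.

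PKC enzymes respond to lipid signals. Classical members (PRKCA, PRKCB) need both calcium and diacylglycerol, a second class (PRKCD, PRKCE, PRKCH, PRKCQ) needs diacylglycerol but no calcium, and the atypical members (PRKCI, PRKCZ) respond to neither and act in cell polarity complexes. PRKCQ, or PKC theta, is best known from T cells, where it links the antigen receptor to NF-kappaB, and from skeletal muscle. A microRNA finds transcripts mainly by pairing of its seed, so a biotin pull-down asks which transcripts were held by the tagged molecule. The comparison here addresses which transcripts differed between RNA recovered after transfection of tagged miR-182 and RNA of mock transfected cells.

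The mature sequence of the microRNA, from RefSeq on GRCh38.p14, is shown with its seed (bases 2 to 8) in capitals, since the seed is the part expected to pair with a transcript; the labels do not print the duplex itself. The MIR182 gene holds it on the minus strand at chr7:129770447-129770470.
hsa-miR-182-5p: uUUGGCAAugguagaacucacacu
A fully paired seed site in a transcript reads UUGCCAA. No other mature microRNA among the 2370 names in that RefSeq table has the same seed. Transcript sequences of the PKC genes were not used here, so no site is reported for any of them.

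Across all probes, Pearson's r was 0.978 between the pull-down arrays, 0.98 to 0.987 among the mock arrays, and 0.885 to 0.904 between the groups; probes are not independent replicates. The lowest value on each array lay between 8.0 and 8.04. Between 14.9% and 15.4% of probes on pull-down arrays and between 19.9% and 26.7% on mock arrays lay within 0.1 of that lowest value. Differences of dim probes may be compressed at this limit. Of 7 genes set as a check of the cell line, 6 had a probe. None of the 6 was called in either direction, beside 20.2% of all genes called higher and 15.0% lower. A call between groups does not bear on cell identity. The mesenchymal filament vimentin (VIM) was at 13.04 to 13.76 at its brighter probe. The neuronal genes NEFL, NEFM and ENO2 were at 8.06 to 8.32, 8.83 to 8.97 and 8.41 to 9.22. The epithelial keratins KRT8 and KRT18 were at 8.23 to 8.66 and, at the brighter probe of KRT18, at the lower limit (8.0 to 8.09). Levels of different probes are not comparable with each other. None of 10 T cell markers and none of 6 skeletal muscle markers had a probe in the table, so the presence of the tissues in which PRKCQ is best known could not be checked here.

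PRKCQ, one of the calcium-independent members, stood far apart from its family. Its value was 10.27 and 10.25 in pull-down arrays 1 and 2, against 8.08, 8.06 and 8.05 in mock arrays 1, 2 and 3. Both pull-down arrays were above every mock array. The mock values lay at the lower limit of the arrays. Whether this limit narrows their spread was not tested. The mean was 10.26 ± 0.01 (SD, n = 2) in the pull-down and 8.06 ± 0.02 (SD, n = 3) in the mock. The log2 difference was 2.20 (SE 0.05), a 4.58-fold higher signal after the pull-down. Standard errors (SE) here and below come from limma, a linear model that moderates each gene's variance with that of all genes. Taken array by array, the smallest pull-down minus mock difference was 2.17 and the largest 2.22. The difference ranked 9 among the 8127 genes, counted from the highest. On the mock arrays the probe lay 0.07, 0.01 and 0.03 above the lowest value of the array, so the mock signal was at the lower limit. The fold may therefore be compressed, by an amount that these values do not give. PRKCQ rests on 1 probe, so no second probe checks it.

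**Figure D1:**
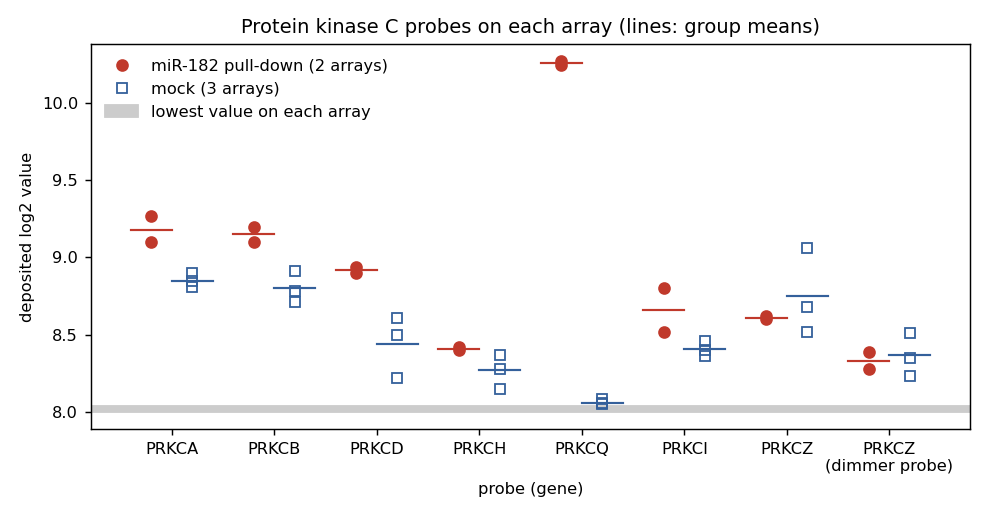
Deposited log2 value (vertical axis) of each PKC probe (horizontal axis) on the 2 miR-182 pull-down arrays (filled circles) and the 3 mock arrays (open squares), with lines at the group means and a grey band over the lowest values of the arrays. PRKCQ is at 10.25 and 10.27 in the pull-down and between 8.05 and 8.08, beside the grey band, in the mock; the other probes differ by far less between groups.

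The other calcium-independent members measured were PRKCD and PRKCH. PRKCD, a widely expressed kinase known for roles in apoptosis, was at 8.90 and 8.94 in the pull-down and at 8.50, 8.61 and 8.22 in mock arrays 1, 2 and 3. The groups did not overlap, and most of the spread came from the mock arrays. Its log2 difference was 0.48 (SE 0.13), or 1.39-fold. PRKCH, known from epithelial differentiation, was at 8.42 and 8.40 in the pull-down and at 8.37, 8.15 and 8.28 in the mock. Here the lowest pull-down value and the highest mock value were only 0.03 apart, and the log2 difference was 0.14 (SE 0.08).

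The classical members had small differences of like size. PRKCA, which acts downstream of many receptors that raise calcium, was at 9.27 and 9.10 in the pull-down and at 8.85, 8.81 and 8.90 in the mock. The groups did not overlap, and the log2 difference was 0.33 (SE 0.08), or 1.26-fold. PRKCB, which serves B cell receptor signalling among other roles, was at 9.20 and 9.10 in the pull-down and at 8.91, 8.78 and 8.71 in the mock. Again every pull-down value was above every mock value, with a log2 difference of 0.35 (SE 0.08), or 1.27-fold.

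Of the atypical members, PRKCI is the polarity kinase that joins the PAR complex. It was at 8.80 and 8.52 in the pull-down and at 8.36, 8.40 and 8.46 in the mock, with a log2 difference of 0.25 (SE 0.10). Pull-down array 2 was only 0.05 above the highest mock array, so the gap between groups rested mostly on pull-down array 1, and without that array the difference was 0.11. PRKCZ, the other atypical kinase, was the one measured member with a negative difference. Its brighter probe was at 8.62 and 8.60 in the pull-down and at 8.68, 9.06 and 8.52 in the mock, and its log2 difference was -0.14 (SE 0.17). The pull-down values lay inside the range of the mock values, and mock array 2 set the sign. Without mock array 2 the difference was 0.01. The dimmer PRKCZ probe was at 8.28 and 8.39 in the pull-down and at 8.35, 8.23 and 8.51 in the mock, and its log2 difference was -0.03 (SE 0.10), and its groups overlapped as well.

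**Figure D2:**
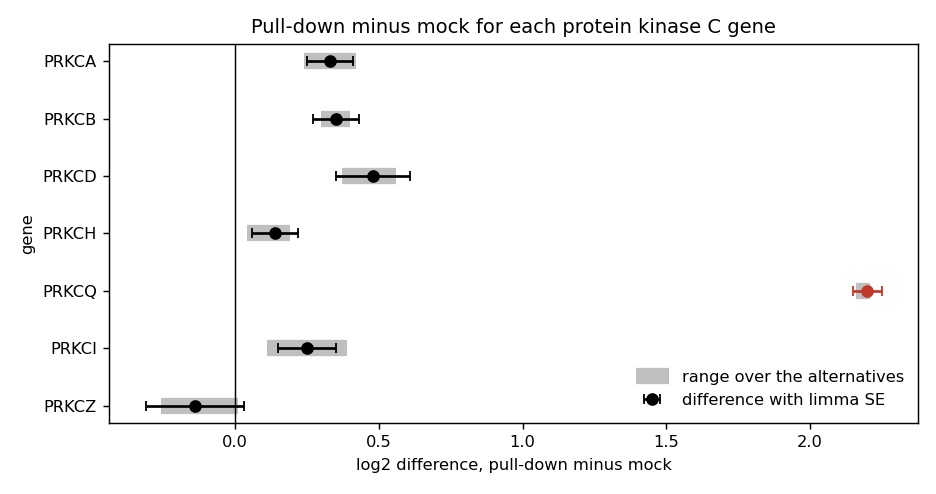
Log2 difference, pull-down minus mock (horizontal axis), of each measured PKC gene (vertical axis; brighter probe for PRKCZ), with the limma standard error as a bar and the range over the alternatives as a grey band. PRKCQ lies between 2.16 and 2.21, PRKCD, the next highest, between 0.37 and 0.56, and the band of PRKCZ reaches from -0.26 to 0.01.

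As a family, 6 of the 7 measured genes had a positive difference, against 52.2% of all 8127 genes. Limma was fitted across all genes, with the Benjamini-Hochberg correction over all of them; a gene counts as called when this adjusted p is under 0.05. By this rule 3 of the 7 (PRKCQ, PRKCA and PRKCB) were called higher, none was lower, and 4 were not past the threshold. Among all genes 20.2% were called higher and 15.0% lower. The pull-down arrays lay above all mock arrays for 6 of the 7, against 35.0% of all genes, and below all mock arrays for 0 of the 7, against 30.1%. These counts are from the comparison by which PRKCQ was chosen, and nothing is read from them. The median difference of the 6 genes other than PRKCQ was 0.29, beside 0.02 over all genes. Of these 6 genes PRKCD had the highest difference, and 81.5% of all genes had a lower one than PRKCD. PRKCQ exceeded PRKCD by 1.72, PRKCB by 1.85, PRKCA by 1.87, PRKCI by 1.95, PRKCH by 2.05 and PRKCZ by 2.34 on the log2 scale. The calls of PRKCA and PRKCB were near the threshold (limma adjusted p = 0.0334 and 0.0355). Without pull-down arrays 1 and 2 in turn, the difference was 0.24 and 0.42 for PRKCA and 0.30 and 0.40 for PRKCB. Without each mock array in turn, it was 0.31 to 0.35 for PRKCA and 0.31 to 0.40 for PRKCB. Leaving out a mock array also lowered the higher calls over all genes, from 1640 to between 989 and 1379. With 1 array left out, PRKCA was called only without pull-down array 2 and PRKCB only without mock array 1, while PRKCD, not called on all arrays, was called only without mock array 3. With arrays scaled to equal medians, neither PRKCA nor PRKCB was called.

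**Figure D3:**
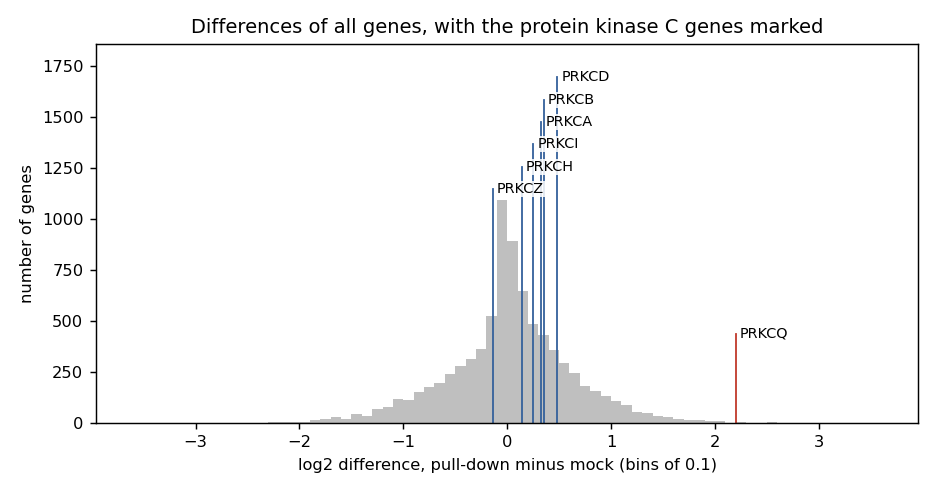
Number of genes (vertical axis) by log2 difference, pull-down minus mock, in bins of 0.1 (horizontal axis) for all 8127 genes, with a vertical line at each measured PKC gene; line heights only separate the names. PRKCQ at 2.20 lies in the sparse upper tail, while the other 6 genes lie between -0.14 and 0.48.

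The genes with a pattern most like that of PRKCQ were sought over the 5 arrays, with each gene's own mock mean subtracted and the root mean square distance as the measure. The nearest was PHF21A, a reader protein of a histone demethylase corepressor complex, at a distance of 0.10 and with a log2 difference of 2.06 (SE 0.08). BARD1, the partner of BRCA1, followed at a distance of 0.13 with a difference of 2.08 (SE 0.12), and SNX6, a sorting nexin of the retromer, at 0.13 with 2.06 (SE 0.12). The PKC relatives were at distances of 1.09 (PRKCD) to 1.49 (PRKCZ) from PRKCQ. The measure weighs the size of a difference most, and it is a description over 5 arrays with no test. The mock means of PHF21A, BARD1 and SNX6 were 9.14, 8.93 and 8.73, above the lower limit, whereas the mock of PRKCQ was at that limit. The distances, and which genes come out nearest, therefore rest on a difference of PRKCQ that this limit may compress.

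Beyond the family, 8 lists of genes around PKC were read: relatives, enzymes that make or remove diacylglycerol, other diacylglycerol receptors, priming and maturation factors, substrates, polarity partners and the NF-kappaB branch. Of 101 listed genes, 54 had a probe, of which limma called 13 higher and 8 lower (adjusted p under 0.05), leaving 33 uncalled. These are 24.1% higher and 14.8% lower, beside 20.2% and 15.0% of all genes, and the median difference was 0.03 beside 0.02. The shares of calls in the lists were thus near those of the whole table. Of the 21 called genes, 5 kept their call with any 1 array left out, namely PRKD1, PHLPP2, MARCKS, SQSTM1 and TAB2. Leaving out pull-down array 1 gave 5 higher and 2 lower calls, and leaving out pull-down array 2 gave 6 and 4. Higher calls numbered 8 with mock array 1 removed and 6 with mock array 2 removed. Of the 5 genes that kept their call, PRKD1, PHLPP2 and TAB2 had mock values close to the lower limit. Their mock SDs were 0.05, 0.03 and 0.01. Whether that limit bears on the stability of these calls was not tested.

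Among PKC relatives, 1 of 4 measured genes was higher and none lower, beside 20.2% and 15.0% of all genes. PRKD1, a protein kinase D that PKC activates, was at 8.66 and 8.54 in the pull-down and at 8.13, 8.07 and 8.04 in the mock, with the mock values close to the lower limit. Its log2 difference was 0.52 (SE 0.07, limma adjusted p = 0.00862). PKN2, PKN3 and PRKD2 had differences of -0.13, -0.18 and 0.17 and did not pass.

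Phospholipase C enzymes make diacylglycerol and diacylglycerol kinases remove it. PLCB1, a phospholipase driven by G proteins, was at the lower limit in the mock (8.07 to 8.08) and higher by 0.31 (SE 0.06, limma adjusted p = 0.0181). PLCG1, the form driven by tyrosine kinases, was at 8.59 and 8.86 in the pull-down against 9.22, 9.29 and 9.40 in the mock. It was lower, with a log2 difference of -0.58 (SE 0.11, limma adjusted p = 0.0190), while its other probe, near the lower limit, gave -0.03. The other 2 of the 4 measured phospholipase genes, PLCD3 and PLCG2, did not pass. DGKQ, 1 of 2 diacylglycerol kinases measured, was lower by limma with a difference of -0.51 (SE 0.08, adjusted p = 0.0127). These counts stand beside 20.2% of all genes called higher and 15.0% lower, and with so few genes nothing is read from them. Without pull-down array 1 the limma adjusted p was 0.0770 for PLCB1, 0.0674 for PLCG1 and 0.0669 for DGKQ. PLCB1 also lost its call without mock array 1 (limma adjusted p = 0.0585) or mock array 2 (0.0573), and PLCG1 without mock array 2 (0.0633).

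Other proteins bind diacylglycerol through the same kind of C1 domain as PKC. In this list 2 of 4 measured genes were higher and none lower, beside 20.2% and 15.0% of all genes. CHN1, a GTPase-activating protein for Rac, was higher by 0.58 (SE 0.13) and CDC42BPA, a kinase that acts with Cdc42, by 0.40 (SE 0.08), with a limma adjusted p of 0.0276 and 0.0231. The mock values of CDC42BPA (8.17, 8.11 and 8.08) were close to the lower limit, so its difference may be compressed. Neither call was stable. CHN1 had a limma adjusted p of 0.119 and 0.0538 without pull-down arrays 1 and 2, and 0.0822 and 0.0669 without mock arrays 2 and 3. CDC42BPA had 0.0769 without pull-down array 2 and 0.0573, 0.0739 and 0.0573 without mock arrays 1, 2 and 3 (limma adjusted p).

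A newly made PKC is primed by phosphorylation and folded with chaperones before it can respond. Of 9 measured genes in this list, 2 were higher and 2 lower (22.2% each way, beside 20.2% and 15.0% of all genes). PDPK1, the kinase of the activation loop, was at 10.05 and 10.12 in the pull-down against 8.96, 8.90 and 9.33 in the mock, and its log2 difference was 1.03 (SE 0.15, limma adjusted p = 0.0104). Its dimmer probe gave 0.17 with overlapping groups, so the 2 probes disagree. PHLPP2, a phosphatase that removes a priming phosphate, was at 8.64 and 8.95 in the pull-down and at 8.10, 8.04 and 8.09 in the mock. The groups did not overlap, with a log2 difference of 0.72 (SE 0.11, limma adjusted p = 0.0113). The mock was at the lower limit, so this difference may be compressed. The kinase MTOR and its partner MLST8, both subunits of the complex mTORC2 that phosphorylates PKC, were lower. Their differences were -0.41 (SE 0.11) and -0.93 (SE 0.19, limma adjusted p = 0.0427 and 0.0228). MAPKAP1, another subunit of mTORC2, was not called. Its difference was 0.20 (SE 0.08, limma adjusted p = 0.11) at its brightest probe, and -0.02 and 0.07 at its other probes. Without pull-down arrays 1 and 2 the limma adjusted p was 0.0524 and 0.0552 for PDPK1, 0.17 and 0.0711 for MTOR, and 0.0813 and 0.108 for MLST8. It was also above the threshold for MTOR without mock array 1 (0.116) or mock array 3 (0.097) and for MLST8 without mock array 2 (0.0659).

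Of 10 measured PKC substrates and binders, 2 were higher and 3 lower, or 20.0% and 30.0% beside 20.2% and 15.0% of all genes. MARCKS, the abundant membrane-bound substrate from which PKC activity is often read, was at 13.08 and 13.55 in the pull-down and at 11.87, 11.93 and 11.64 in the mock. The groups were far apart, with a log2 difference of 1.50 (SE 0.18), or 2.83-fold (limma adjusted p = 0.00661). Its relative MARCKSL1 had a difference of 0.07 (SE 0.21) and overlapping groups. STK39, a kinase reported as a substrate of PKC theta, was higher by 0.62 (SE 0.12, limma adjusted p = 0.0222).

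The adducins, which cap actin filaments, were lower at their brightest probes. ADD1 was at 10.49 and 10.43 in the pull-down and at 11.59, 11.76 and 11.25 in the mock, a difference of -1.07 (SE 0.17, limma adjusted p = 0.0117). Its other probe gave -0.44, with the pull-down at the lower limit (8.05 and 8.02), so that difference may be compressed. ADD3 had a difference of -0.56 (SE 0.13, limma adjusted p = 0.0311) at its brightest probe but 0.01 and 0.13 at its other probes. Those other probes were dim (8.1 to 8.54), so their differences may be compressed. PEBP1, a small inhibitory protein that PKC phosphorylates, was lower by limma with a difference of -0.97 (SE 0.15, adjusted p = 0.0119). Without pull-down arrays 1 and 2 the limma adjusted p was 0.0598 and 0.0608 for ADD1, 0.0618 and 0.0616 for PEBP1, and 0.107 and 0.0663 for STK39. STK39 also had 0.0735 without mock array 2, and ADD3 had 0.0847, 0.0941 and 0.0717 without mock arrays 1, 2 and 3 (limma adjusted p).

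Of 8 measured partners of the atypical PKCs, 2 were higher and 1 lower, shares near the 20.2% and 15.0% of all genes. CDC42, the GTPase that recruits the PAR complex, was at 11.36 and 11.37 in the pull-down and at 10.25, 9.61 and 10.47 in the mock, and its log2 difference was 1.26 (SE 0.27, limma adjusted p = 0.0271), with 0.35 and overlapping groups at its dimmer probe. WWC1, an adaptor that binds atypical PKC, was higher by 0.58 (SE 0.10, limma adjusted p = 0.0142). SQSTM1, a scaffold for atypical PKC and an autophagy receptor, was at 9.68 and 9.80 in the pull-down and at 11.42, 11.52 and 11.17 in the mock. It had the largest negative difference of the 54 genes, -1.63 (SE 0.13, limma adjusted p = 0.00346). Without pull-down arrays 1 and 2 the limma adjusted p was 0.113 and 0.112 for CDC42 and 0.0743 and 0.054 for WWC1. CDC42 had 0.0703 without mock array 1 and WWC1 had 0.0535 without mock array 2 (limma adjusted p).

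In T cells PRKCQ signals to the IKK kinases and on to NF-kappaB. Of 13 measured genes of this branch, 3 were higher and none lower, beside 20.2% and 15.0% of all genes. The higher calls were 23.1% of the branch, and 10 genes were not past the threshold. Of the 3 calls, that of TAB2 was the only one kept with any 1 array left out. TAB2, an adaptor of the kinase TAK1, was at 8.48 and 8.54 in the pull-down and at 8.06, 8.04 and 8.04 in the mock, and its log2 difference was 0.46 (SE 0.06, limma adjusted p = 0.00704), with the mock at the lower limit. TAB1 was higher by 0.42 (SE 0.11, limma adjusted p = 0.0478). The IKK subunits CHUK, IKBKB and IKBKG had differences of 0.25, -0.06 and -0.09, and the NF-kappaB subunits NFKB1 and RELA had -0.03 and -0.10; none of these passed. TAB1 lost its call with any array left out, with a limma adjusted p from 0.0612 to 0.181.

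**Figure D4:**
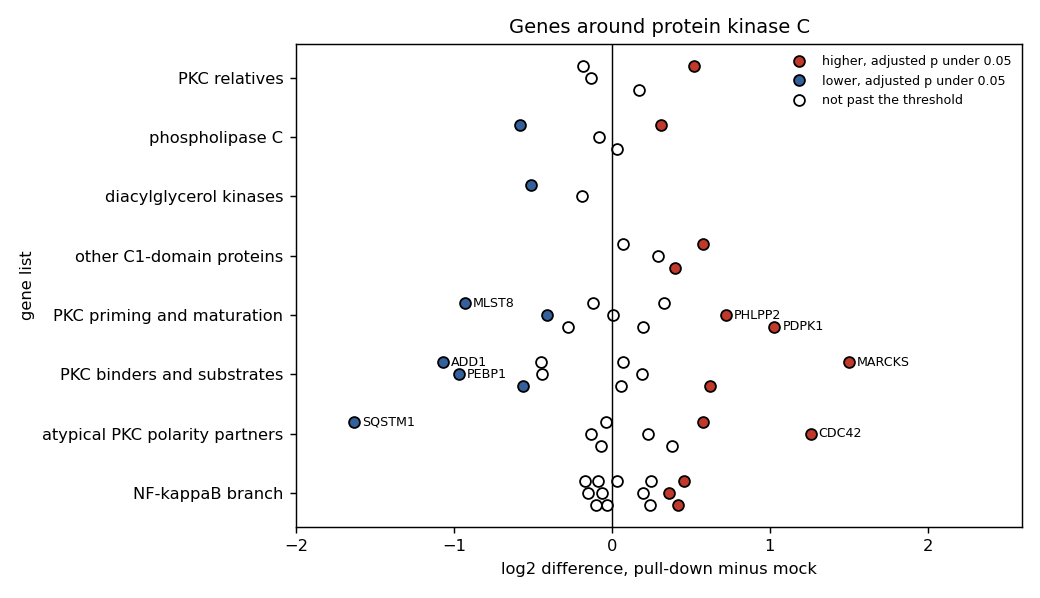
Log2 difference, pull-down minus mock (horizontal axis), of the 54 measured genes in 8 lists around PKC (vertical axis), each point a gene, filled where it was called by limma (adjusted p under 0.05); called genes past 0.7 in either direction are named. MARCKS at 1.50 and SQSTM1 at -1.63 are the farthest from 0, and 33 of the 54 points are open.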

How the data were processed

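The log2 values that the authors deposited were used as given, and the base was inferred from their range. Per the submitters' processing notes lumi 2.2.1 was used, with no role stated. How the background was corrected, how arrays were normalized or centred and how probes were filtered is not stated in these sources. The lower limit near 8 may compress differences of dim probes. A second table of unnormalized signals was not used, because the names of its 10 value columns match no sample. Probes were named through the platform annotation, updated by Entrez identifier to RefSeq symbols: a single symbol was found for 10040 probes, several for 1 and none for 1143. Each gene was represented by its brightest probe on average. The arrays name no genome build, so no position is printed for the PKC genes or the list genes.

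Groups were compared across all 8127 genes by lmFit and eBayes of limma 3.58.1 (R 4.3.3), 2-sided and with no term but group (3 residual and 1.61 prior degrees of freedom), with Benjamini-Hochberg adjustment over all genes and calls at an adjusted p under 0.05. The script was tested on simulated data. With 2 arrays against 3 an exact permutation test of 1 gene cannot go below p = 0.1, and the number of arrays limits the precision. Genes were named by a rule that took the PKC genes, the called genes of each list and the 3 genes nearest to PRKCQ, clone-type symbols (LOC, HS., KIAA) left out; a few of these are counted but not reported here by name. Uncalled genes of the lists named beside them were picked after their values were seen. The members and lists were chosen with earlier results of these data known. Alternatives were 3 scalings, a minimum mean of 9, 2 probe rules, trended robust moderation, a replicate block and leaving out each array.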

Additional observations from a re-analysis of the deposited data

How the results depend on the processing

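The log2 difference of PRKCQ was 2.16 to 2.21 over the 12 alternatives that hold it, and since the gene was chosen by this difference nothing is read from its calls; a minimum mean of 9 removed it and the other 6 PKC genes from the test, so that alternative gave no value for them. The number of PKC genes called higher, 3 of 7, was 1 with arrays scaled to equal medians and 1 with the replicate block. It was 1 to 2 with 1 mock array left out and 2 with trended robust moderation. Quantile normalization gave 3, and equal 75th percentiles and averaged probes gave 4 each. No PKC gene was called lower in any alternative run. PRKCZ ranged from -0.26 to 0.01 with 1 array left out and changed sign only without mock array 2; its limma adjusted p stayed between 0.284 and 0.936 in these fits. PRKCD, not called on all arrays, was called with arrays scaled to equal 75th percentiles, with probes averaged, with trended robust moderation and without mock array 3. In the lists around PKC, 13 higher calls became 5 with a minimum mean of 9, where 21 of the 54 genes were tested, and 5 to 10 with 1 array left out; 8 lower calls became 2 to 6 with 1 array left out. None of the 21 called list genes changed sign in any alternative run. With a pull-down array left out, the lone array is assumed to vary like the mock. Replicate numbers 1 and 2 occur in both groups, and the sample titles give no more than that number. Deviations of same-numbered arrays from their group means correlated with r = 0.036 and 0.115. With 2 pull-down arrays the deviations of one mirror those of the other, so these values cannot settle whether arrays were paired. Under the replicate block, calls over all genes went from 1640 higher and 1215 lower to 1289 and 1132. With trended robust moderation 2143 were higher and 1531 lower. With 1 array left out 958 to 1379 genes were higher and 638 to 1205 lower. Equal medians gave 1500 higher and 1403 lower.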

Other observations

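PRKCQ-AS1, an RNA named as antisense to PRKCQ and looked up after the values of PRKCQ were seen, has its own probe. It was at 8.56 and 8.45 in the pull-down and at 8.36, 8.13 and 8.29 in the mock, and the log2 difference, 0.24 (SE 0.09), did not pass the threshold (limma adjusted p = 0.110). Its arrays did not overlap between groups, and its difference was of the order of those of PRKCI and PRKCA.

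HSP90AA1, an inducible chaperone that helps kinases fold, was also picked after its values were seen, because its 2 probes disagree. The brighter probe, which stood for the gene, overlapped between groups with a difference of -0.12 (SE 0.14). The dimmer probe was at 11.99 and 12.60 in the pull-down and at 14.04, 13.51 and 14.07 in the mock, a difference of -1.58 (SE 0.27).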
